A study of Homo sapiens with 12 samples.

Results

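Of 18417 genes measured on these arrays, 5 make up the set described here: TP53INP1, ZMAT3, SPATA18, CYGB and ACTA2. They were selected on measured values, as p53 target genes that were higher after Nutlin than after DMSO in cells with a p53 hairpin, so their rise in that comparison is how they were found and not a result. Each has 1 probe set with a single gene symbol, and all 5 passed the filter on dim genes. The cells were HepG2, an established human hepatoma line, in a version with a p53 hairpin RNA (sh-p53) and a version with a control hairpin (sh-con). Wells of 700000 cells were exposed for 24 h to DMSO, the solvent control, to 10 uM Nutlin or to 0.5 mM AICAR. The 6 groups (sh-con with DMSO, Nutlin or AICAR, and sh-p53 with DMSO, Nutlin or AICAR) hold 2 Affymetrix arrays each, from biological duplicates. Each hairpin is represented by 1 line in the labels, so knockdown of p53 and other differences between these lines cannot be told apart.

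p53 is a transcription factor that is held low by MDM2, a ubiquitin ligase which is itself a p53 target. Nutlin keeps MDM2 off p53. AICAR is converted in cells to an AMP mimic that switches on AMPK, a kinase that senses low energy. TP53INP1 encodes a stress-induced nuclear protein that acts in p53 signalling and in autophagy. ZMAT3 encodes a zinc finger protein that binds RNA, SPATA18 (also called Mieap) a protein of mitochondrial quality control, and CYGB cytoglobin, a globin of non-erythroid cells. ACTA2 encodes smooth muscle alpha-actin. In the liver, ACTA2 is best known as a marker of activated stellate cells, and CYGB as a globin of stellate cells.

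A p53 binding site is built from a pair of decamers of a known consensus, the p53 decamer. RefSeq start-site windows (build GRCh38.p14, 250 bases before and 50 from the start on) were used for 3 of the 5 members: ACTA2 and ZMAT3 with 2 starts each and SPATA18 with 1. They are shown because the members were chosen as p53 target genes that rose under a compound that stabilises p53. The stretch printed for ACTA2 is the minus strand of chr10:88991308-88991587, that for SPATA18 the plus strand of chr4:52051054-52051333, and that for ZMAT3 the minus strand of chr3:179071780-179072059, each running from 250 bases before the start to base 30 after it. Capitals mark a match to the decamer, exact in ACTA2 and with 1 letter off (never its fixed C or G) in SPATA18 and ZMAT3.
ACTA2: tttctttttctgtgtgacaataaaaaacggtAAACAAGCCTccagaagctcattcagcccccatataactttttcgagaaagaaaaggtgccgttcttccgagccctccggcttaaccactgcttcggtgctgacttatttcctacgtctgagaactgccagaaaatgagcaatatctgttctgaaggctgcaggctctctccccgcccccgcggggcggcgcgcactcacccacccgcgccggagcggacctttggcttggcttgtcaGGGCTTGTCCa
SPATA18: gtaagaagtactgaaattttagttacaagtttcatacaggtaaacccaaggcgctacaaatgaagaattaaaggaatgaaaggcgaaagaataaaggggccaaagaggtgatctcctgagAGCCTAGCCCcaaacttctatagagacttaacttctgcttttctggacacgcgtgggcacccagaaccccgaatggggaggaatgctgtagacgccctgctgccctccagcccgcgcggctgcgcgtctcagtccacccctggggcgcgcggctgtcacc
ZMAT3: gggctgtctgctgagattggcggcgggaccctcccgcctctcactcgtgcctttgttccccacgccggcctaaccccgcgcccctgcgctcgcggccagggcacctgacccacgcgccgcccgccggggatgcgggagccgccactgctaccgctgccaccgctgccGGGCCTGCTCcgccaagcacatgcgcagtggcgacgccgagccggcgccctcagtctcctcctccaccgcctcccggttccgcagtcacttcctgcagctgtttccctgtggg
The decamer reads alike on both strands. An exact match was found in 6.63% of all 35116 windows of this kind, at least 2 exact matches in 0.308%, and a match with up to 1 letter off in 45.1%. The ACTA2 window held 2 exact matches, AAACAAGCCT and GGGCTTGTCC. They begin at positions -219 and 20 from the start, so these 2 do not lie side by side as a pair. Stretches with more than 1 letter off were not marked. The bases directly before GGGCTTGTCC, tggcttgtca, keep the fixed C and G of the decamer and have 2 other letters off. Whether they form a pair with it was not tested. The windows of SPATA18 and ZMAT3 held 1 match each with 1 letter off, as a large share of all windows did. The other ACTA2 start, further into the gene, and the other ZMAT3 start had no match. FAS, the death receptor gene beside ACTA2 on chromosome 10, runs on the opposite strand, and 1 of its windows (chr10:88991181-88991480) shares 193 bases with the ACTA2 window. The match GGGCTTGTCC lies in the shared stretch, at chr10:88991309-88991318, and is read as GGACAAGCCC on the FAS strand. A match describes the letters in the window and says nothing on binding.

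Values are RMA values on the log2 scale, in which a difference of 1 is a 2-fold change, and with 2 arrays a group the precision of each comparison is limited. Array medians lay between 5.64 and 5.84, and duplicates of a group correlated across the genes tested at r = 0.983 to 0.994. The transcript that the p53 hairpin is directed at was not analysed here. CDKN1A, which encodes the cell cycle inhibitor p21, and MDM2 were lower in sh-p53 than in sh-con under AICAR, by log2 differences of -1.27 ± 0.13 and -1.21 ± 0.14 (SE; limma, adjusted p = 9.67e-06 and 1.82e-05). The 8 measured hepatocyte markers, ALB the brightest, had means between 11.69 and 11.98 in all 12 arrays. The 6 endothelial markers all lay below the 25th percentile of gene means (4.58), the level below which genes were set aside as dim. Of 5 leukocyte markers 3 lay below it, PTPRC lowest at 3.26 and CD68 brightest at 8.39, and the mean of the list went from 4.90 and 4.97 in sh-con DMSO to 5.13 and 5.16 with Nutlin and 5.26 and 5.40 with AICAR. CD68, a lysosomal protein gene, and CD14, an endotoxin receptor gene, were the leukocyte markers tested. Both rose with AICAR in sh-con, by 0.59 ± 0.13 and 0.93 ± 0.15 (limma, adjusted p = 0.00198 and 9.8e-05), and CD14 also with Nutlin in sh-con (0.92 ± 0.15, adjusted p = 0.000148). All 4 cholangiocyte markers lay above the level for dim genes, KRT7 lowest at 5.28 and EPCAM brightest at 10.57. The mean of that list was 8.34 to 8.55 in the 12 arrays. In sh-con, KRT19 went from a mean of 9.8 with DMSO to 10.87 with Nutlin, and EPCAM from 10.44 to 10.05. With AICAR in sh-con their means were 9.87 and 10.96. In sh-p53, KRT19 had means of 10.07 with DMSO, 10.13 with Nutlin and 9.61 with AICAR, and EPCAM of 10.63, 10.61 and 10.74. The part of the leukocyte and cholangiocyte markers in the members' results was not tested.

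In sh-con, TP53INP1 read 7.75 and 7.74 with DMSO, 10.17 and 10.05 with Nutlin and 10.70 and 10.54 with AICAR. Its sh-p53 duplicates read 7.12 and 7.28 with DMSO, 8.55 and 8.57 with Nutlin and 8.83 and 8.96 with AICAR. No 2 groups overlapped, and AICAR gave the highest level in either line. The order ran from sh-con AICAR over sh-con Nutlin, sh-p53 AICAR and sh-p53 Nutlin to sh-con DMSO and sh-p53 DMSO.

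ZMAT3 went from 7.95 and 7.87 (DMSO) to 9.67 and 9.62 (Nutlin) and 8.82 and 8.73 (AICAR) in the sh-con line. In the sh-p53 line it went from 7.05 and 7.06 (DMSO) to 8.03 and 7.96 (Nutlin) and 7.67 and 7.87 (AICAR). Nutlin in sh-con was highest, followed by AICAR in sh-con. The sh-p53 AICAR arrays overlapped the untreated sh-con arrays, and all other neighbours in the order of the 6 groups lay apart.

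SPATA18 read 7.34 and 7.14 in sh-con DMSO against 5.84 and 5.63 in sh-p53 DMSO, 9.36 and 9.14 in sh-con Nutlin against 7.10 and 6.82 in sh-p53 Nutlin, and 7.27 and 6.87 in sh-con AICAR against 6.11 and 5.81 in sh-p53 AICAR. Only Nutlin in sh-con stood clear at the top. The sh-con AICAR arrays overlapped both the sh-con DMSO and the sh-p53 Nutlin arrays, and at the low end the sh-p53 AICAR and sh-p53 DMSO arrays overlapped.

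CYGB read 6.16 and 6.68 in sh-con DMSO, the widest gap between duplicates among the members (0.52), and 5.85 and 5.85 in sh-p53 DMSO. Under Nutlin it reached 9.46 in both sh-con arrays and 6.86 and 7.08 in the sh-p53 arrays. Under AICAR the sh-con arrays read 7.12 and 7.34, the sh-p53 arrays 6.36 and 6.35. Nutlin in sh-con therefore lay more than 2 log2 units above every other group, and the sh-con DMSO arrays overlapped the sh-p53 AICAR arrays.

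ACTA2 read 8.34 and 8.28 in sh-con DMSO and 7.03 and 6.99 in sh-p53 DMSO. Nutlin took the sh-con arrays to 10.63 and 10.38, the sh-p53 arrays to 8.54 and 8.17. With AICAR the sh-con arrays were at 8.37 and 8.03, the sh-p53 arrays at 6.25 and 6.40, the lowest group of all. The sh-p53 Nutlin, sh-con DMSO and sh-con AICAR arrays overlapped along the order, and the other neighbours lay apart. The array has 1 ACTA2 probe set, so transcripts from its 2 listed starts were not separated.

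**Figure D1:**
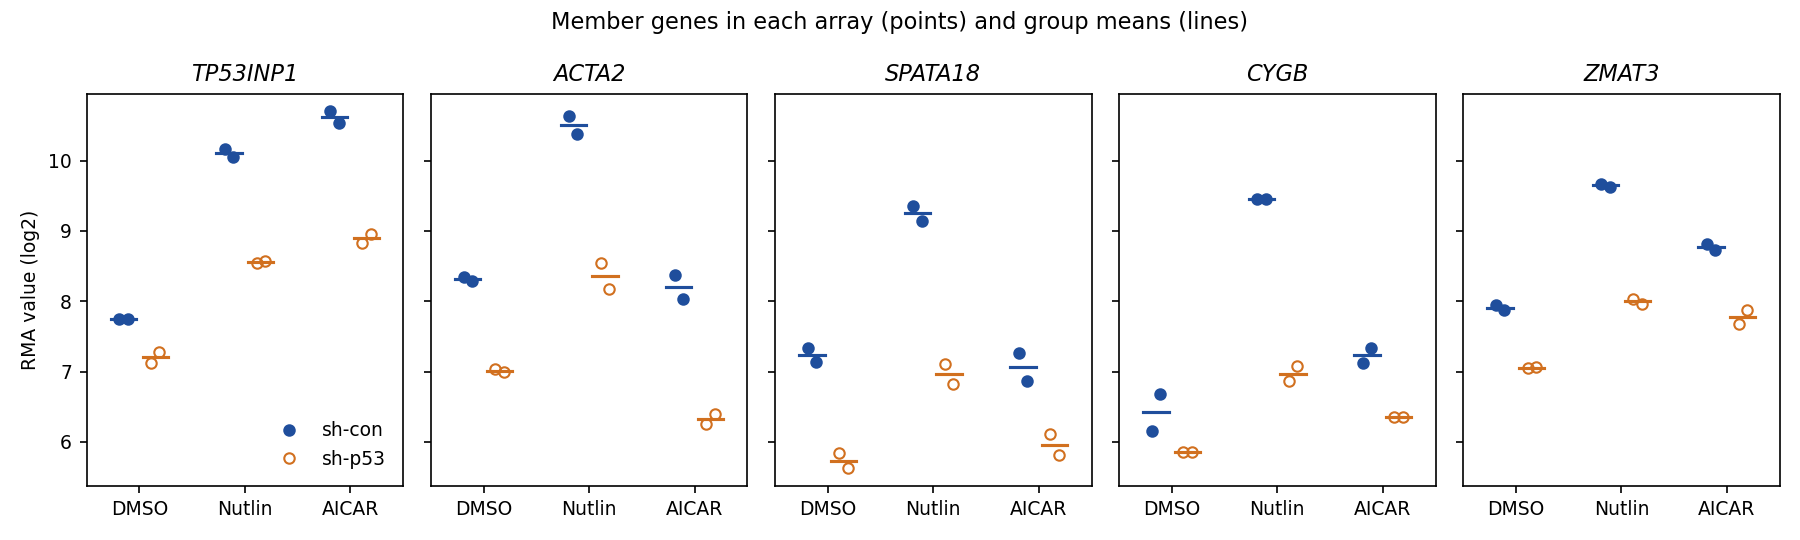
RMA values (log2, vertical axis) of the 5 genes by treatment, with sh-con arrays as filled and sh-p53 arrays as open points and a line at each group mean. Nutlin in sh-con is the highest group for 4 genes; for TP53INP1 the sh-con AICAR mean of 10.62 is above the Nutlin mean of 10.11.

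The comparison that chose the members, Nutlin against DMSO in sh-p53, is given as a description. There TP53INP1 was higher by 1.36 ± 0.13 (log2, SE of the fit), ACTA2 by 1.35 ± 0.16, SPATA18 by 1.23 ± 0.17, CYGB by 1.12 ± 0.16 and ZMAT3 by 0.94 ± 0.13. In all, 11 of 13813 genes tested (0.0796%) were higher there at a Benjamini-Hochberg adjusted p under 0.05 with limma, the threshold for a call throughout. The count was 5 without sh-p53 DMSO replicate 1, without sh-p53 DMSO replicate 2 or without sh-p53 Nutlin replicate 1. The 6 called genes that are not members were CDKN1A (1.39 ± 0.13), MDM2 (1.32 ± 0.14), SULT2A1, a hydroxysteroid sulfotransferase gene (1.09 ± 0.16), SULF2, a heparan sulfatase gene (0.89 ± 0.15), SESN1, which encodes a stress-induced sestrin (0.89 ± 0.15), and MR1, which encodes an antigen-presenting molecule (0.85 ± 0.15). Ranked by p, the member nearest the threshold was CYGB, and the genes just outside were ANKRD20A8P (1.14 ± 0.21) and RPS27L, a p53-induced ribosomal protein paralogue (0.77 ± 0.14). SULT2A1, SULF2, ANKRD20A8P and RPS27L are named here after their values were seen.

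In sh-con, the Nutlin response of the members was larger, and it too belongs to what the choice took as given (11.3% of all genes were called higher and 18.9% lower). CYGB was higher by 3.05 ± 0.16, TP53INP1 by 2.37 ± 0.13, ACTA2 by 2.20 ± 0.16, SPATA18 by 2.01 ± 0.17 and ZMAT3 by 1.74 ± 0.13 (log2, SE). The sh-p53 response was 36.8% of the sh-con response on the log2 scale for CYGB, 54.3% for ZMAT3, 57.3% for TP53INP1, 61.1% for SPATA18 and 61.4% for ACTA2. Of the other p53 target genes called higher with Nutlin in sh-con, 57 in number, the median share was 27.9%, 7 had a share above that of ACTA2 and 35 one below that of CYGB. Members were picked for a high response in sh-p53, so this difference in shares is a description.

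**Figure D2:**
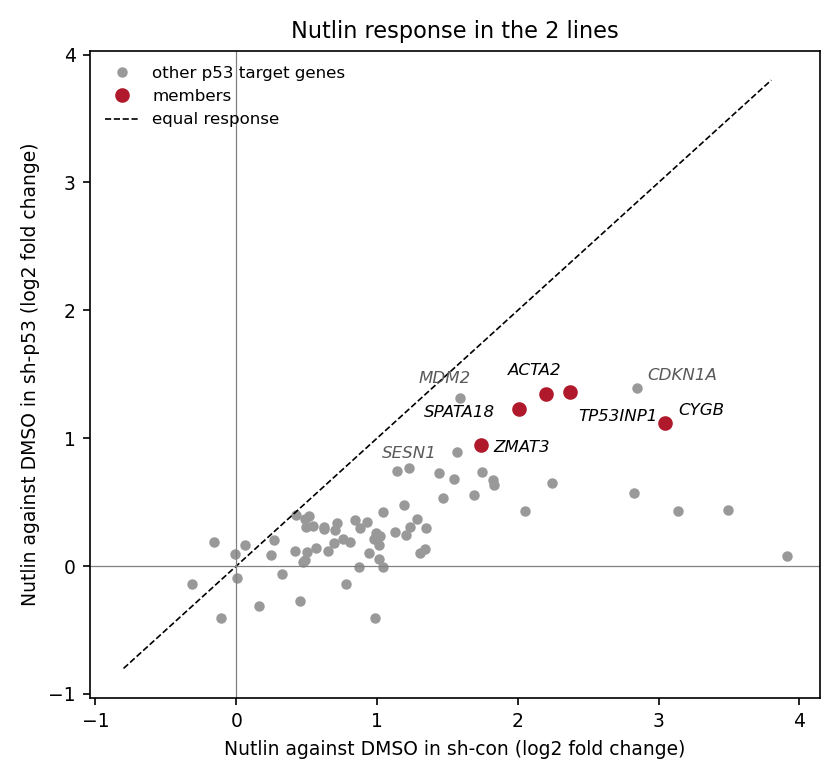
Log2 fold change with Nutlin against DMSO in sh-con (horizontal) and in sh-p53 (vertical) for the 5 members (red) and 69 other p53 target genes (grey), with a dashed line of equal response. The members lie below the line, at 0.94 to 1.36 in sh-p53, beside CDKN1A, MDM2 and SESN1.

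Nutlin in sh-p53 was also set beside untreated sh-con cells, again with no test. ACTA2 (0.05 ± 0.16) and ZMAT3 (0.09 ± 0.13) were within 1 SE of the untreated control level, SPATA18 was lower (-0.28 ± 0.17), and CYGB (0.55 ± 0.16) and TP53INP1 (0.81 ± 0.13) were higher. Without sh-con DMSO replicate 1 the CYGB value was 0.29 and without sh-con DMSO replicate 2 it was 0.81. Leaving out any of these 4 arrays in turn, ACTA2 spanned -0.14 to 0.24 (without sh-p53 Nutlin replicates 1 and 2), SPATA18 -0.42 to -0.13 (the same arrays), ZMAT3 0.05 to 0.13 and TP53INP1 0.81 to 0.82. In DMSO the sh-p53 level lay below the sh-con level by log2 differences of -1.50 ± 0.17 for SPATA18, -1.30 ± 0.16 for ACTA2, -0.85 ± 0.13 for ZMAT3, -0.57 ± 0.16 for CYGB and -0.54 ± 0.13 for TP53INP1. For CYGB this difference was -0.31 without sh-con DMSO replicate 2 and -0.83 without sh-con DMSO replicate 1. The sh-p53 DMSO arrays entered the choice of members, and genes that happened to read low in them were favoured by it.

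The comparison of sh-p53 with sh-con under AICAR shares no array with any Nutlin response, and asks whether the members also differed between the lines under the other stimulator. All 5 members were lower in sh-p53. ACTA2 was lower by 3.67-fold (log2 difference -1.88 ± 0.16, SE, 2 arrays against 2; limma, adjusted p = 7.02e-07) and TP53INP1 by 3.31-fold (-1.73 ± 0.13, adjusted p = 2.15e-07). SPATA18 was lower by 2.15-fold (adjusted p = 0.000455), ZMAT3 by 2.01-fold (adjusted p = 9.53e-05) and CYGB by 1.84-fold (adjusted p = 0.00226). Over all genes tested 4.69% were called lower and 4.13% higher, and the groups lay apart with sh-p53 lower for 5 of 5 members and 19.5% of all genes. The median log2 difference of the members was -1.11, that of all genes 0.028. The count of genes called lower, 648, was 357 without sh-con AICAR replicate 1 and 264 without sh-p53 AICAR replicate 1; all 5 members passed whichever of the 4 arrays was left out. These are cell cultures measured in bulk, so fewer cells with the transcript and less RNA per cell cannot be told apart. The p-values rest on the spread between duplicate cultures of these lines. That spread was pooled over all 6 groups and drawn by limma towards a value common to all genes.

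**Figure D3:**
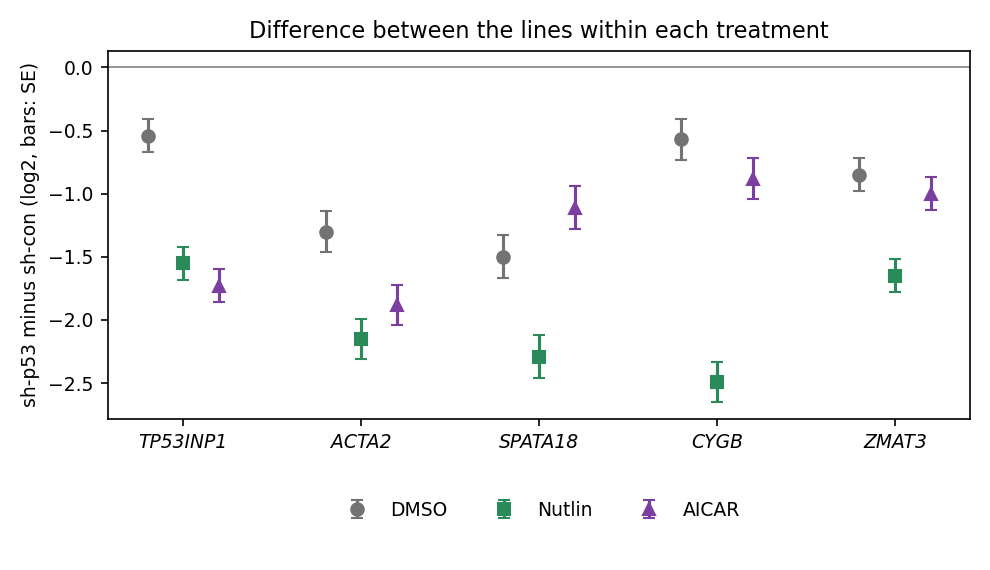
Log2 difference of sh-p53 minus sh-con (vertical axis, bars are the SE of the fit) for each gene within DMSO, Nutlin and AICAR. All points lie below 0, and under AICAR they run from -0.88 for CYGB to -1.88 for ACTA2.

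AICAR against DMSO in sh-con split the members. This comparison uses the sh-con DMSO arrays, which also entered the Nutlin response of sh-con that the choice took as given. Genes that happened to read low in them were favoured, so the members' p-values here are not free of the choice. TP53INP1 rose 7.34-fold (log2 fold change 2.88 ± 0.13, SE, 2 arrays against 2; limma, adjusted p = 1.32e-10) and ranked 15 among all genes by fold change. ZMAT3 rose 1.82-fold (0.86 ± 0.13, adjusted p = 5.68e-05) and CYGB 1.76-fold (0.81 ± 0.16, adjusted p = 0.000679). ACTA2 and SPATA18 did not pass, at -0.11 ± 0.16 (adjusted p = 0.604; 95% interval -0.45 to 0.23) and -0.17 ± 0.17 (adjusted p = 0.436; 95% interval -0.53 to 0.19). The intervals leave out a rise of 2-fold for either gene. Of all genes, 14.6% were called higher and 23.2% lower, 2023 and 3198 in number. After centring each array on its median these counts were 1103 and 3920, and without sh-con DMSO replicate 1 they were 1164 and 2009; the same number of members, 3 of 5, passed in each of these fits. Leaving out each array in turn, CYGB spanned 0.55 to 1.08.

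Set side by side in sh-con, the fold changes with Nutlin and with AICAR were 2.37 and 2.88 (log2) for TP53INP1, 1.74 and 0.86 for ZMAT3, 3.05 and 0.81 for CYGB, 2.20 and -0.11 for ACTA2 and 2.01 and -0.17 for SPATA18. Both comparisons share the sh-con DMSO arrays. TP53INP1 was the member with the higher level under AICAR (0.51 ± 0.13 above Nutlin), and ACTA2, CYGB, SPATA18 and ZMAT3 had the higher level under Nutlin, by log2 differences of AICAR minus Nutlin of -2.31 ± 0.16, -2.23 ± 0.16, -2.18 ± 0.17 and -0.87 ± 0.13. These differences use Nutlin arrays and carry no test.

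In sh-p53, AICAR against DMSO gave log2 fold changes of 1.69 ± 0.13 for TP53INP1, 0.71 ± 0.13 for ZMAT3, 0.50 ± 0.16 for CYGB, 0.23 ± 0.17 for SPATA18 and -0.68 ± 0.16 for ACTA2. No test is given, since the sh-p53 DMSO arrays took part in the choice. The response in sh-p53 minus that in sh-con was -1.18 ± 0.19 for TP53INP1, -0.57 ± 0.23 for ACTA2, -0.31 ± 0.23 for CYGB, -0.15 ± 0.19 for ZMAT3 and 0.40 ± 0.24 for SPATA18. Single arrays moved the smaller of these: CYGB was at -0.05 without sh-con DMSO replicate 1 and -0.57 without sh-con DMSO replicate 2, SPATA18 at 0.20 without sh-con AICAR replicate 2 and 0.25 without sh-p53 AICAR replicate 1, and ZMAT3 at -0.05 and -0.25 without sh-p53 AICAR replicates 1 and 2. The SPATA18 response in sh-p53 was 0.12 without sh-p53 DMSO replicate 2, and 0.08 and 0.38 without sh-p53 AICAR replicates 1 and 2. For Nutlin the same difference was -1.93 ± 0.23 for CYGB, -1.01 ± 0.19 for TP53INP1, -0.85 ± 0.23 for ACTA2, -0.79 ± 0.19 for ZMAT3 and -0.78 ± 0.24 for SPATA18. For TP53INP1 the difference between the lines, -0.54 in DMSO, thus stood at -1.73 under AICAR, while for SPATA18 it was -1.50 in DMSO and -1.11 under AICAR. Over all genes 16.2% were called higher with AICAR in sh-p53, and the response was called lower in sh-p53 than in sh-con for 2.73% with Nutlin and 0.709% with AICAR.

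**Figure D4:**
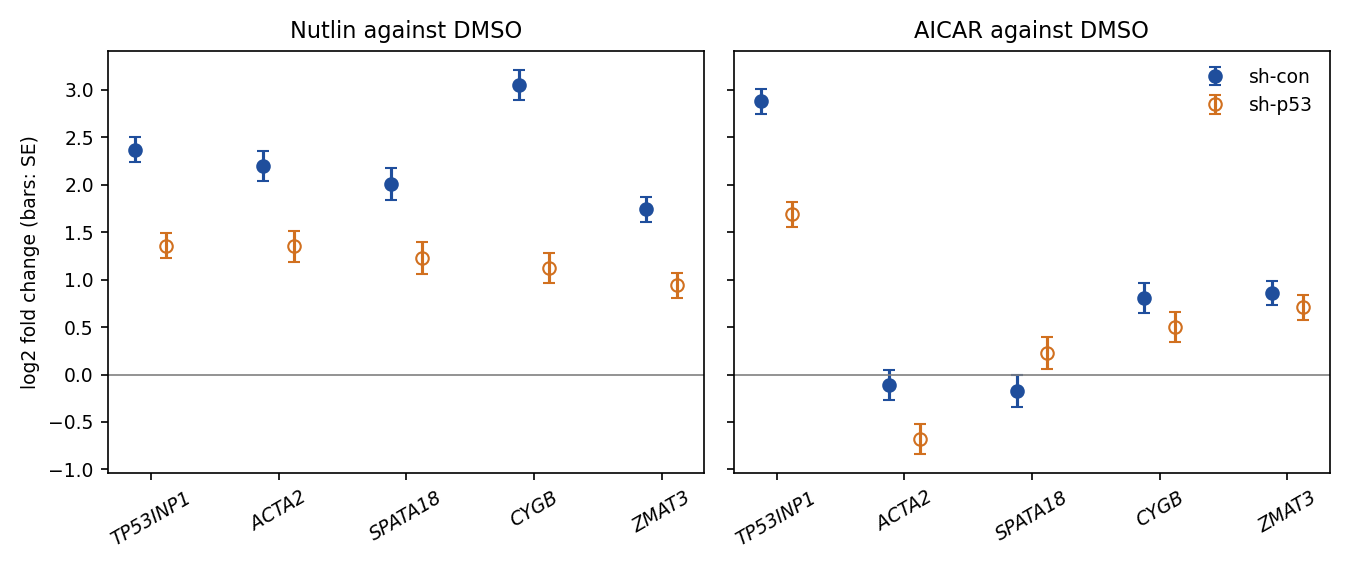
Log2 fold change against DMSO (vertical axis, bars are the SE of the fit) with Nutlin (left) and AICAR (right) in sh-con (filled) and sh-p53 (open). With AICAR in sh-con TP53INP1 is at 2.88, ZMAT3 and CYGB are near 0.8, and ACTA2 and SPATA18 are at -0.11 and -0.17.

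Among the genes fixed as companions of TP53INP1 (9 tested: its paralogue, kinases of p53 and autophagosome proteins), 3 rose and 1 fell with AICAR in sh-con, with a median of -0.05. Over all genes, 14.6% were called higher and 23.2% lower there. The paralogue TP53INP2, an autophagy protein gene, rose by 1.58 ± 0.14 (limma, adjusted p = 1.39e-07) and MAP1LC3B, an autophagosome membrane protein gene, by 1.22 ± 0.15 (adjusted p = 7.06e-06). HIPK2, a kinase that phosphorylates p53, fell by 1.64 on the log2 scale (SE 0.16, adjusted p = 4.01e-07). Under AICAR the lines differed in TP53INP1 but TP53INP2 did not pass, at -0.09 ± 0.14 (adjusted p = 0.791; 95% interval -0.38 to 0.20). With Nutlin TP53INP2 rose by 1.51 ± 0.14 in sh-con (adjusted p = 1.47e-07) and was at 0.36 ± 0.14 in sh-p53 (adjusted p = 0.639).

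Other actins and contractile genes are set beside ACTA2 as a description, since ACTA2 was chosen for its rise with Nutlin and they were not. Over all genes, 11.3% were called higher and 18.9% lower with Nutlin in sh-con. The Nutlin counts below are near those shares, and nothing is read from them about the lists. Of 12 such genes tested, none passed as higher with Nutlin in sh-con by limma (1 lower; by unadjusted p under 0.05, 0 higher and 2 lower), and their median was -0.05. ACTA1, skeletal muscle alpha-actin, was at -0.01 ± 0.18 (adjusted p = 0.974), ACTB, cytoplasmic beta-actin, at -0.27 ± 0.13 (adjusted p = 0.126) and ACTC1, cardiac alpha-actin, at 0.18 ± 0.15 (adjusted p = 0.364); these are named after their values were seen, as the closest relatives. ACTG2, smooth muscle gamma-actin, had group means of 4.18 to 4.37, which puts it among the dim genes. With AICAR in sh-con ACTG1, the other cytoplasmic actin, and TPM1, a tropomyosin, fell by 0.42 and 0.46 (SE 0.13 and 0.15; adjusted p = 0.0198 and 0.0233). Markers of stellate cells, fibroblasts and smooth muscle had a mean over 16 genes of 4.67 to 4.98 in the 12 arrays, between 4.67 and 4.79 in sh-con DMSO and 4.79 and 4.89 in sh-con Nutlin. Of these, 7 lay below the level for dim genes, LUM lowest at 2.99 and COL1A1 brightest at 6.47. Of the 9 tested, none passed as higher with Nutlin in sh-con (1 at an unadjusted p under 0.05), and TAGLN, a smooth muscle protein gene, fell by 0.56 (SE 0.16, adjusted p = 0.0161). The median of the 9 was 0.25, against 0.012 for all genes. The collagen genes COL1A2 (0.45 ± 0.18, adjusted p = 0.0687), COL3A1 (0.32 ± 0.18, adjusted p = 0.179) and COL1A1 (0.31 ± 0.18, adjusted p = 0.179) were among those with a value above 0. The part of these markers in the values of ACTA2 and CYGB was not tested.

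Companions of SPATA18 in mitochondrial quality control (9 tested) held 1 gene that rose and 2 that fell with AICAR in sh-con, with a median of -0.12. These shares are near those over all genes (14.6% higher and 23.2% lower), and nothing is read from them about the list. PINK1, the kinase that marks damaged mitochondria, rose by 0.63 ± 0.15 (limma, adjusted p = 0.00275), while PHB2, an inner membrane prohibitin, and LONP1, a matrix protease, fell by 0.80 and 0.36 (SE 0.14 each; adjusted p = 0.00024 and 0.0467). PINK1 also rose with Nutlin in sh-con (0.65 ± 0.15, adjusted p = 0.00324). Among the globins and cytoglobin reductants (7 tested) none rose with AICAR or Nutlin in sh-con by limma, with 0 higher at an unadjusted p under 0.05 in either. Over all genes 14.6% were called higher with AICAR and 11.3% with Nutlin, so nothing is read from these counts. CYB5R3 and CYB5A, the cytoglobin reductants of the list, fell with AICAR in sh-con by 0.56 and 0.42 (SE 0.14 each, limma, adjusted p = 0.0045 and 0.0233). The ZMAT family and related RNA-binding genes (4 tested) held none that rose with Nutlin in sh-con (0 at an unadjusted p under 0.05). With 11.3% called higher over all genes, nothing is read from that count. ELAVL1, an RNA-stabilising protein gene, fell by 0.68 with Nutlin in sh-con (SE 0.16, limma, adjusted p = 0.00346).

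The measured genes nearest to each member on the chromosome gave 10 neighbours, 1 on each side. With Nutlin in sh-con, FAS beside ACTA2 rose by 1.74 ± 0.15 (limma, adjusted p = 6.68e-08). ACTA2-AS1, an antisense transcript at the ACTA2 locus, read 4.40 and 4.29 in sh-con DMSO and 4.68 and 4.94 in sh-con Nutlin. It passed the filter on dim genes (4.58) only through the groups where it was higher, so no test of it is given. Beside TP53INP1, NDUFAF6 (-0.32 ± 0.17, adjusted p = 0.157) and PLEKHF2 (0.17 ± 0.15, adjusted p = 0.411) did not pass. SGCB (adjusted p = 0.576) and USP46 (adjusted p = 0.7) beside SPATA18, RHBDF2 beside CYGB (adjusted p = 0.197) and KCNMB3 beside ZMAT3 (adjusted p = 0.592) did not either. SNORD1B, a small nucleolar RNA gene near CYGB, fell by 0.85 (SE 0.22, adjusted p = 0.0081). KCNMB2, on the other side of ZMAT3, was left out as dim.

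FAS and ACTA2 share the stretch with the decamer printed above, and both were higher with Nutlin, but with AICAR in sh-con FAS rose and ACTA2 did not pass. In sh-con, FAS read 7.24 and 7.07 after DMSO, 8.89 and 8.90 after Nutlin and 9.11 and 8.94 after AICAR. In sh-p53 it stood at 6.27 and 6.25 in DMSO, 6.99 and 7.0 with Nutlin and 6.84 and 7.27 with AICAR. With AICAR in sh-con FAS thus rose by 1.88 ± 0.15 (limma, adjusted p = 5.48e-08), where ACTA2 was at -0.11 ± 0.16; the difference between the genes was not tested. In sh-p53, FAS was higher with AICAR (0.80 ± 0.15, adjusted p = 0.000434) and missed the threshold with Nutlin (0.74 ± 0.15, adjusted p = 0.0948). Under AICAR FAS was lower in sh-p53 than in sh-con by a log2 difference of -1.97 ± 0.15 (adjusted p = 1.81e-07), beside -1.88 for ACTA2.

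**Figure D5:**
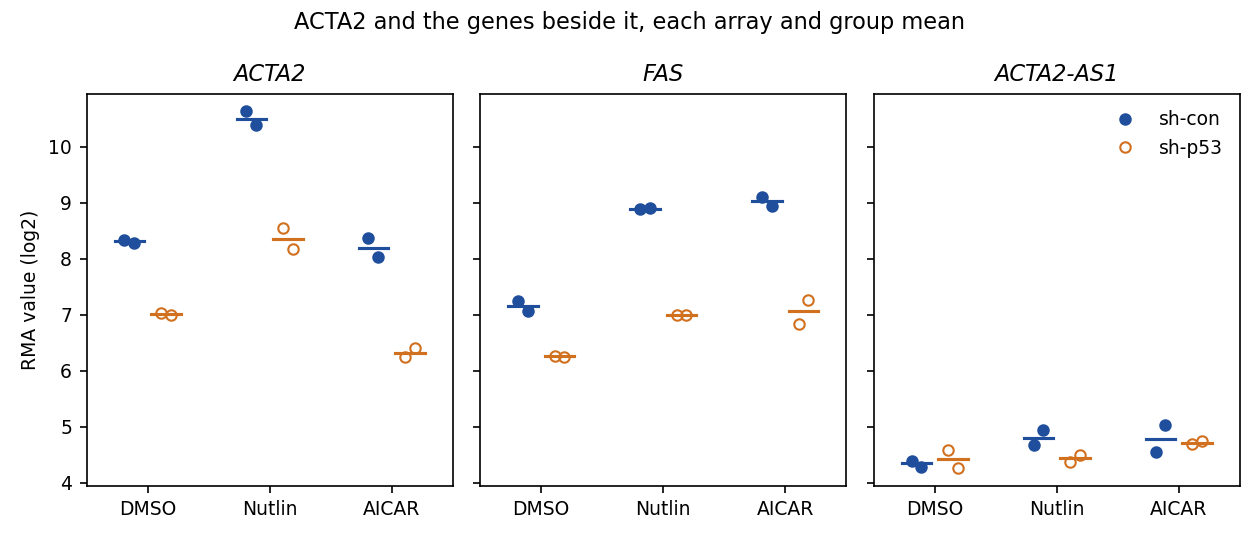
RMA values (log2, vertical axis) of ACTA2, FAS and the antisense transcript ACTA2-AS1 by treatment, with sh-con arrays filled, sh-p53 arrays open and lines at group means. The sh-con mean of FAS rises from 7.15 in DMSO to 9.03 with AICAR, while that of ACTA2 is 8.31 in DMSO and 8.20 with AICAR.

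A list of 76 further p53 target genes, the members left out, gave 69 tested genes. With Nutlin in sh-con 57 rose and none fell by limma (0 fell by unadjusted p under 0.05). Over all genes, 11.3% were called higher and 18.9% lower there, and 0.0796% higher with Nutlin in sh-p53. For the list, the median log2 fold change with Nutlin in sh-con was 0.95. With Nutlin in sh-p53 3 rose, CDKN1A, MDM2 and SESN1, and none fell (unadjusted p under 0.05: 29 higher, 2 lower); their median was 0.27 against -0.016 for all genes. Under AICAR 43 were lower in sh-p53 than in sh-con and none higher (0 higher by unadjusted p under 0.05), and the median was -0.66; without sh-p53 AICAR replicate 1 the count was 28. With AICAR in sh-con 46 rose and 4 fell, with a median of 0.74. Over all genes, 14.6% were called higher and 23.2% lower with AICAR in sh-con. Under AICAR, 4.69% of all genes were called lower in sh-p53 than in sh-con. By role, those that rose with AICAR in sh-con were 8 of 10 growth arrest genes, 12 of 14 apoptosis and death receptor genes, 5 of 7 feedback genes, 3 of 7 DNA repair genes, 7 of 11 metabolism and redox genes and 11 of 20 autophagy, membrane and signalling genes. The DNA repair group had the lowest median, 0.05, and held DDB2, a damage recognition gene at 0.05 ± 0.16 (adjusted p = 0.823) that rose with Nutlin in sh-con (1.04 ± 0.16, adjusted p = 8.11e-05).

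The patterns over the 12 arrays differed among the members. Pearson's r was highest between ACTA2 and SPATA18 (0.967) and lowest between TP53INP1 and ACTA2 (0.488), with CYGB and ZMAT3 at 0.94. The arrays fall in 6 groups, so these values describe the group pattern and carry no test. The genes most like TP53INP1 were MR1 (r = 0.978), ISCU, an iron-sulfur scaffold gene (0.970), and CYP4F12 (0.967). MR1 rose by 3.64 ± 0.15 with AICAR in sh-con (limma, adjusted p = 3.45e-11). Most like ACTA2 were DDB2 (r = 0.981), SLC16A10, an aromatic amino acid transporter gene (0.971), and UQCC1, an assembly factor of respiratory complex III (0.970). CYP4F11 (0.974), TM7SF3 (0.971) and ACTA2 itself (0.967) were most like SPATA18. For CYGB the closest were TNFRSF14, a receptor of the TNF receptor family (0.986), AMPD3, an AMP deaminase gene (0.978), and FADS3 (0.977). For ZMAT3 they were STAR, a mitochondrial cholesterol carrier gene (0.974), SERPINA6, the cortisol-binding globulin gene (0.974), and the p53 target CYFIP2 (0.973).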

How the data were processed

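Total RNA (200 ng per array, TRI reagent) of 12 HepG2 cultures was labelled with biotin for Affymetrix arrays, per the labels' protocols. The deposited values are log2 values, 1 per probe set and array, and the submitters' processing notes name RMA and Partek; their versions and settings are not given in the sources used here. The method draws arrays towards a common distribution and gives no detection call, so the sizes of changes in dim genes are uncertain.

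Of 33297 probe sets, 19460 had 1 gene symbol in the platform annotation, 1754 had several and 12083 were not listed there. A gene was read from its brightest single-symbol probe set. The dimmest genes, those below the 25th percentile of means (4.58), were set aside, which left 13813 of 18417. Group means of all 12 arrays were fitted with limma 3.58.1 (R 4.3.3, the package data.table at 1.17.8), with 6 residual and 11.34 prior degrees of freedom. A call is a Benjamini-Hochberg adjusted p under 0.05 over all genes tested, 2-sided. Members were tested in 2 comparisons and described in 7. Of these 2, AICAR against DMSO in sh-con shares its DMSO arrays with the choice of members.

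The members and lists were chosen with earlier results of these data known. Named were the members, their chromosomal neighbours, the 3 genes most correlated with each, up to 4 called p53 targets per role (Nutlin, sh-p53), up to 3 called companions each (AICAR, sh-con), cell type markers, CDKN1A and MDM2. Setting treated sh-p53 beside untreated sh-con, and AICAR beside Nutlin, was added after seeing the data, as was leaving out arrays there. The fit was tested on simulated data. Alternatives covered scaling, the filter, probe set summary, a replicate block, the arrays fitted and leaving out each array.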

Additional observations from a re-analysis of the deposited data

Results flagged for a closer look

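Results in which a compound's response differed between the lines, by a test of the difference itself, concern genes beside the members. For CDKN1A the Nutlin response in sh-p53 minus that in sh-con was -1.45 ± 0.19 (log2, SE; limma, adjusted p = 3.82e-05); with AICAR it was -0.51 ± 0.19 and did not pass (adjusted p = 0.24). For FAS the difference was -1.01 ± 0.21 with Nutlin (adjusted p = 0.00466) and -1.08 ± 0.21 with AICAR (adjusted p = 0.0191). MDM2 was examined in the same way and passed with neither compound. SESN1 was named because it was called higher with Nutlin in sh-p53, so no test of its difference is given. The MDM2 difference with Nutlin was -0.27 ± 0.19 (limma, adjusted p = 0.481). The same difference was not tested for the members, since the sh-p53 DMSO arrays took part in their choice.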

How the results depend on the processing

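Each of the 10 tested member results kept its side of the threshold under every alternative run, and those past it their direction: 3 members passed with AICAR in sh-con and 5 between the lines under AICAR. CYGB with AICAR came nearest (0.55 to 1.08 leaving out an array; limma, adjusted p = 0.0323 without sh-con DMSO replicate 1). ACTA2 and SPATA18, not called, spanned -0.28 to 0.06 and -0.37 to 0.03. Median centring shifted all genes by -0.141 with AICAR in sh-con. Counts over all genes moved more. Genes higher in sh-p53 under AICAR numbered 571, 888 after quantile normalisation again and 341 from the compared arrays alone. With AICAR in sh-con, 1103 genes were higher and 7 other p53 targets lower (against 4) after median centring. For Nutlin in sh-p53, 29 genes were higher from the compared arrays alone. Leaving out an array gave 1164 to 2562 genes higher and 2009 to 3409 lower with AICAR in sh-con, 139 to 607 higher and 264 to 730 lower between the lines under AICAR, 28 to 43 other p53 targets lower there, and 5 to 9 higher for Nutlin in sh-p53. Deviations of same-numbered arrays correlated at 0.252 to 0.567 in all 6 group pairs among sh-con DMSO, sh-con Nutlin, sh-con AICAR and sh-p53 Nutlin, and at -0.558 to 0.264 in the other 9. The labels do not tie the numbers to a shared day or batch, so arrays were not treated as paired. With the replicate block the same numbers of members passed (3 and 5), CYGB with AICAR at 0.81 ± 0.15, and 2094 genes rose and 3209 fell with AICAR in sh-con; no member call changed. With no detection call, RMA values set no floor, and dim genes such as ACTA2-AS1 carry uncertain sizes.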
